A study of Mus musculus with 19 samples.

Results

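The subject here is what a high-fat diet changed in the livers of mice with the genotype code KO, given as 3 arrays of mice on the high-fat diet (HFD) against 3 arrays of mice on the normal diet (ND). These 6 arrays were chosen by the genotype and diet written in their sample titles, out of 19 arrays in all, and every gene with a single symbol was compared, 22180 genes. The whole study crossed the genotype codes WT, KO and TG with both diets. It had 3 arrays in each group and 4 for TG on HFD. The WT and TG arrays are used below only to estimate the spread and to show where the KO livers differ. The mice were 2 to 3 months old, the diet lasted 4 weeks, and RNA came from whole liver. What the genotype codes stand for is not written in the labels, and only the series title mentions the gene Kcp. Nothing in them describes the KO allele, whether it is absent from all tissues, the transgene's promoter, or the sex, strain, food composition and hour of harvest. Animal numbers in the titles differ in style between the diets, so diet and cohort of mice cannot be told apart. Each title has an animal number of its own, which is the sole reason for treating replicates as separate mice. A p-value sets a difference against the spread between samples of a group, estimated over all 19 arrays and not from the KO arrays alone.

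Kcp encodes Kielin/chordin-like protein, a secreted, cysteine-rich protein that binds BMP and TGF-beta ligands outside the cell and shifts signalling towards the BMP branch. Hepatocytes meet a fat-rich diet with changes in lipid storage, fatty acid oxidation and lipid synthesis, and they also express cytochrome P450 enzymes whose levels follow xenobiotic receptors, growth hormone pulses and the time of day. Resident macrophages, stellate cells and endothelium add their own RNA to a whole-liver sample. In such a sample, fewer cells of a type and less RNA per cell cannot be told apart.

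Kcp itself was dim in the KO livers. On the log2 scale its level was 2.15, 1.64 and 2.30 in KO ND replicates 1 to 3 and 1.90, 2.17 and 1.97 in KO HFD replicates 1 to 3. The WT arrays lay between 1.77 and 2.82, overlapping the KO arrays, and the TG arrays between 5.35 and 5.81. The TG arrays therefore stood apart from the others at this gene, while the KO label could not be checked from it, because the KO and WT levels overlap and the position of the probe set relative to the altered part of the gene is not given in the sources used here. Hepatocyte marker genes were high in all 6 KO arrays, with an average over 11 genes between 10.92 and 11.05 on ND and between 10.94 and 10.98 on HFD. Adipocyte and pancreas markers had no called gene among 11 and 10 measured. KO arrays of the same group correlated at 0.9738 to 0.9776 across probe sets. KO ND replicate 2 correlated least, at 0.9738 and 0.9739 with the other KO ND arrays, which correlated with each other at 0.9763. Its mean correlation with arrays of other groups was 0.9675, against 0.9708 to 0.9723 for the other KO arrays.

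The diet changed 178 genes in KO liver, 0.803% of those tested, with 102 higher (0.46%) and 76 lower (0.343%) on HFD (limma's moderated test over all 19 arrays, Benjamini-Hochberg adjusted p under 0.05, which is what called, rose and fell mean below). The falls were larger than the rises, with a median log2 difference of -1.14 against 0.85 and with 47 falls and 32 rises of at least 2-fold. Leaving aside predicted genes, small RNAs and pseudogenes, the largest falls were those of the P450 gene Cyp2b10, the signalling inhibitor Socs2 and the P450 gene Cyp2c55. The largest rises were those of the P450 gene Cyp2b13, the retinol dehydrogenase gene Rdh16f2 and the transporter gene Slc22a27. The arrays of both diets did not overlap for any of the 178 genes, but the same held for 17.1% of all genes (9.22% higher and 7.83% lower on HFD), so a lack of overlap is common here. At an unadjusted p under 0.05 there were 2516 genes, and the median difference over all genes was 0.005.

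The count rested on single arrays. It was 27 without KO ND replicate 2, 40 without KO ND replicate 3, 51 without KO HFD replicate 1, 65 without KO HFD replicate 2, 85 without KO HFD replicate 3 and 159 without KO ND replicate 1. KO ND replicate 2 was also the KO array that correlated least with the others. With the spread estimated from the 6 KO arrays alone, 62 genes were called. Of the 178 genes, 18 stayed called whichever of the 6 arrays was left out, while 40 lost their call in each of these cases. Of 49 named genes that were called, 7 kept their call under each alternative in which they were tested. These were Cyp2b10, Cyp2c29, Cyp2b13, Cldn1, Camk1d, Nfkbie and Agtr1a. Cyp2b10 and Cyp2b13 were not tested under the filter on a mean log2 of at least 2, which left them out. Simulated data of the same design had independent normal noise, and changes were given only to genes with a mean log2 of at least 2. Log2 changes of 0.5, 1, 2 and 3 were found for 12%, 66%, 98% and 100% of the genes given them. Changes at the small end would thus mostly be missed. These rates do not cover the dimmer genes, 56.5% of those tested.

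**Figure D1:**
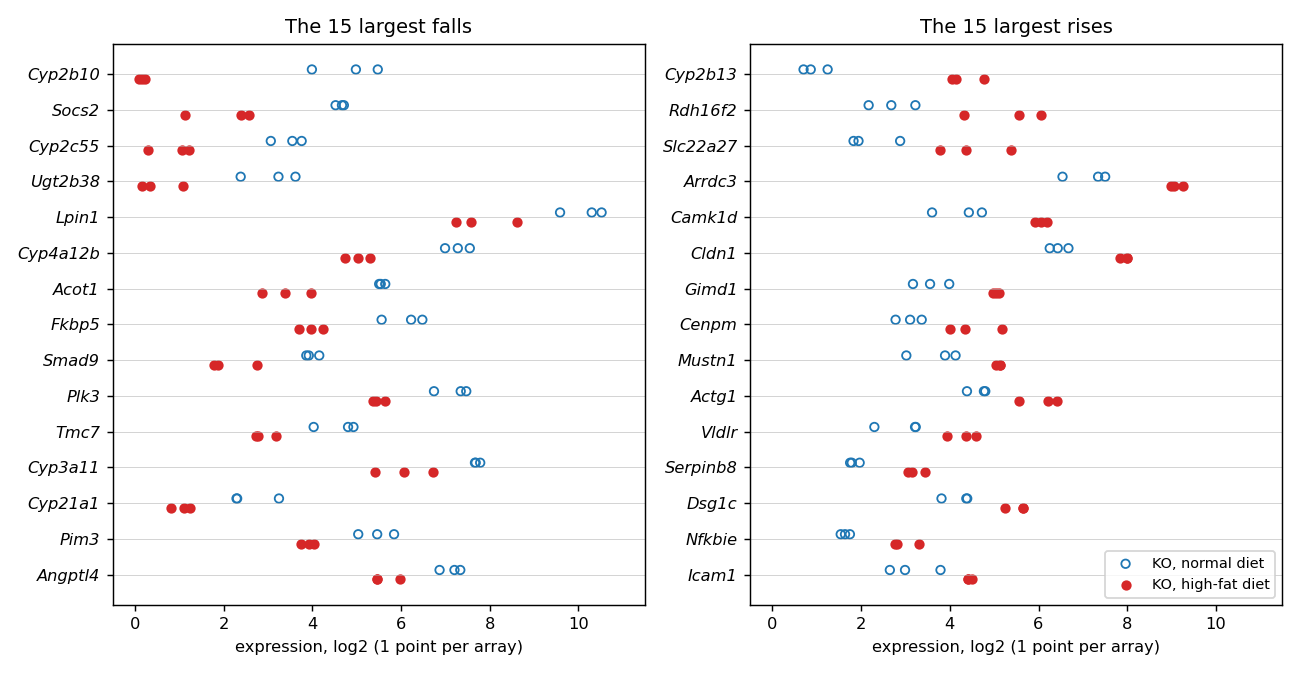
Expression on the log2 scale (horizontal axis) in each KO array, for the 15 named genes with the largest falls (left) and the 15 with the largest rises (right); open circles are the 3 ND arrays and filled circles the 3 HFD arrays. The HFD points of Cyp2b10 lie between 0.09 and 0.23 and its ND points between 3.99 and 5.48, and no gene shown has overlapping diets, which is part of how the genes were chosen.

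Of 28 measured P450 genes of xenobiotic metabolism, 4 fell, 1 rose and 23 did not pass the test, with a median difference of -0.24. Over all genes 0.343% fell and 0.46% rose. In WT 6 of the 28 fell and in TG 5, at medians of -0.43 and -0.27, and none rose in either. Cyp2b10, the classical target of the receptor CAR, had 5.48, 3.99 and 4.98 on ND and 0.23, 0.15 and 0.09 on HFD. All 3 HFD arrays sat at the bottom of the scale, far below the ND arrays. It fell by 4.66 on the log2 scale (25.3-fold, SE 0.63, adjusted p = 0.00326), and since the HFD level is at background the fold is a rough one. Cyp2c55 had 3.76, 3.55 and 3.06 on ND and 0.30, 1.07 and 1.22 on HFD. Here too the diets were well apart, and the gene fell by 2.59 (SE 0.34, adjusted p = 0.00326), although the mean over its probe sets fell by 1.09 with an adjusted p of 0.0668. Cyp3a11, the main mouse CYP3A enzyme and a target of the receptor PXR, had 7.79, 7.67 and 7.68 on ND against 5.40, 6.71 and 6.06 on HFD. The ND arrays were tight and the HFD arrays spread widely below them, a difference of -1.66 (SE 0.24, adjusted p = 0.00408). Cyp2c29, an abundant hepatic P450, had 11.52, 11.32 and 11.33 on ND and 10.15, 10.26 and 10.58 on HFD and fell by 1.06 (SE 0.14, adjusted p = 0.00326). These 4 genes kept their call without each of the 6 arrays, with adjusted p-values up to 0.0178, 0.013, 0.026 and 0.0182.

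Cyp2b13, a P450 of female mouse liver, moved the other way within the Cyp2b family. It had 1.24, 0.70 and 0.86 on ND and 4.76, 4.05 and 4.15 on HFD. The ND arrays were near background and the HFD arrays clearly above it, a rise of 3.38 on the log2 scale (SE 0.52, adjusted p = 0.00663), a size that is rough because of the dim ND level. Rdh16f2, a member of the retinol dehydrogenase family, had 2.68, 2.17 and 3.22 on ND and 5.57, 6.05 and 4.33 on HFD, a rise of 2.62 (SE 0.43, adjusted p = 0.00992). Its mean was 2.69 in KO on ND and between 5.21 and 6.10 in every other group, so KO on ND was the low group. Slc22a27, a member of the organic anion transporter family, had 2.88, 1.83 and 1.94 on ND and 3.77, 5.37 and 4.37 on HFD, and it rose by 2.29 (SE 0.45, adjusted p = 0.0227). In WT it rose as well, by 3.37 (adjusted p = 0.000424), while its difference in TG was -0.57 (adjusted p = 0.727). Arrdc3, an arrestin-domain protein that sorts membrane receptors, rose by 1.97 (SE 0.40, adjusted p = 0.026). Rdh16f2, Slc22a27 and Arrdc3 did not pass without KO ND replicate 2 (adjusted p = 0.0657, 0.118 and 0.161), nor did Slc22a27 and Arrdc3 without 3 and 4 other arrays.

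Among 31 conjugating enzymes 5 fell and 1 rose in WT, and the same numbers did in TG, at medians of -0.18 and -0.25. In KO 2 fell, against 0.343% of all genes, and none rose, with a median of -0.20. They were Gstp2, a glutathione transferase, at 8.05, 7.68 and 7.18 on ND and 6.63, 6.20 and 6.28 on HFD (log2 difference -1.26, SE 0.24, adjusted p = 0.0209), and Ugt2b38, a glucuronosyltransferase, at 3.62, 3.24 and 2.38 on ND and 1.09, 0.15 and 0.33 on HFD (log2 difference -2.56, SE 0.50, adjusted p = 0.0227). Both lost their call without 4 of the 6 arrays, with adjusted p up to 0.093 and 0.0997 without KO ND replicate 2. The Cyp2b, Cyp2c, Cyp3a, Cyp4a, Ugt2b, Gstp and Acot families hold near-identical copies, and which copy a probe set reads is uncertain.

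Several of these falls were also called in the other genotypes. Cyp2c55, Cyp3a11, Cyp2c29 and Ces2a, a carboxylesterase, were called and lower on HFD in KO, WT and TG alike, and they were the only 4 genes called in the same direction in all 3. The diet called 293 genes in WT (1.32%) and 201 in TG (0.906%). Of the 178 genes of KO, 17 were called in the same direction in WT, which is 9.55% of the KO genes and 5.8% of the WT genes, and 6 in TG, 3.37% and 2.99%. A further 3 were called in the opposite direction in WT and 11 in TG, so most genes called in both KO and TG had opposite signs. Cyp2b10 fell by 3.05 in WT (adjusted p = 0.0183) and had a difference of -1.29 in TG (adjusted p = 0.462), and neither interaction passed (adjusted p = 0.553 and 0.0757). For Cyp2b13 the diet difference did depend on genotype, being 5.04 log2 units higher in KO than in WT (adjusted p = 0.0028) and 3.08 higher than in TG (adjusted p = 0.0445). The WT arrays on ND disagreed widely, at 2.71 ± 1.79 (SD, n = 3) against 1.05 ± 0.28 (SD, n = 3) on HFD. The size against WT is therefore rough.

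Male-biased genes held 4 falls. Pulsed growth hormone acts in male mouse liver through STAT5B and keeps a set of P450, transporter and conjugation genes at male levels. Of 24 measured male-biased genes 4 fell, none rose and 20 did not pass, with 18 below 0 and a median of -0.45. Over all genes 0.343% fell. In WT 5 of the 24 fell and 1 rose at a median of -0.41, and in TG 1 fell at a median of -0.09. The interaction passed for 1 of them against WT and for 1 against TG. The 6 KO arrays themselves all carried male RNA, with Xist at 0.16 to 0.63 and the Y-linked genes Eif2s3y at 6.49 to 6.93, Uty at 5.33 to 5.81 and Kdm5d at 4.13 to 4.52. Cyp4a12b, an androgen- and growth hormone-dependent fatty acid hydroxylase, had 6.99, 7.28 and 7.55 on ND and 5.31, 4.74 and 5.03 on HFD. The HFD arrays all lay well below the lowest ND array, and the gene fell by 2.25 (SE 0.46, adjusted p = 0.026). Cyp7b1, which hydroxylates oxysterols and steroids, fell by 1.04 (SE 0.23, adjusted p = 0.0386), and Slco1a1, an organic anion uptake transporter, by 0.83 (SE 0.18, adjusted p = 0.0384). Ugt2b38, given above, is the fourth. Hsd3b5, a male-specific steroid dehydrogenase, had 6.16, 6.16 and 6.13 on ND and 5.12, 3.41 and 4.63 on HFD, with no overlap but an adjusted p of 0.0764.

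Of 13 genes of growth hormone and STAT5 signalling 2 fell, Socs2 and Egfr, against 0.343% of all genes. None of the 13 rose, 11 were not called and the median was -0.26. In WT 1 of them fell and in TG none did, and no interaction of these 13 genes passed against either. Socs2, the STAT5 target that damps growth hormone signalling, had 4.71, 4.53 and 4.67 on ND and 2.40, 1.13 and 2.57 on HFD. Its ND arrays agreed closely and all HFD arrays were far lower, a fall of 2.60 (6.06-fold, SE 0.52, adjusted p = 0.026). Egfr, the epidermal growth factor receptor of hepatocytes, had 9.02, 9.39 and 9.37 on ND and 7.96, 7.79 and 8.27 on HFD and fell by 1.25 (SE 0.24, adjusted p = 0.0192). Igf1 had a difference of -0.26 (adjusted p = 0.445), Cish of -0.88 (adjusted p = 0.546) and Stat5b of 0.42 (adjusted p = 0.278). Female-biased genes gave no common direction, since of 26 measured 1 rose (Cyp2b13), 2 fell (Cyp2b10 and Fmo2) and the median was 0.003. The male-biased calls lost support without 4 or 5 of the 6 arrays, 6 for Slco1a1, with adjusted p up to 0.103 for Cyp4a12b without KO ND replicate 2, and 0.16 for Cyp7b1, 0.151 for Slco1a1 and 0.118 for Socs2 without KO HFD replicate 2. Egfr lost its call without 4 arrays, up to 0.0931 without KO ND replicate 2.

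Among lipid genes Lpin1, Acot1, Angptl4 and Plin5 fell, while Plin3 and Vldlr rose. Lpin1, a phosphatidate phosphatase of triglyceride synthesis that is also a coactivator in fasting, had 9.59, 10.52 and 10.30 on ND and 7.58, 8.61 and 7.23 on HFD. The highest HFD array stayed clearly below the lowest ND array, and the gene fell by 2.33 (5.03-fold, SE 0.48, adjusted p = 0.028). Acot1, an acyl-CoA thioesterase induced by PPAR-alpha, had 5.54, 5.51 and 5.64 on ND and 2.86, 3.38 and 3.98 on HFD and fell by 2.16 (SE 0.44, adjusted p = 0.026). The secreted lipoprotein lipase inhibitor Angptl4 had 6.87, 7.21 and 7.34 on ND and 5.46, 5.46 and 5.98 on HFD. With a fall of 1.51 it only just passed (SE 0.35, adjusted p = 0.0498), and 4 alternatives of normalization, probe set and variance put it between 0.0513 and 0.0591. Plin5, which tethers lipid droplets to mitochondria, fell by 1.34 (SE 0.30, adjusted p = 0.0458), while Plin3, a droplet coat protein, rose by 0.65 (SE 0.13, adjusted p = 0.0239). Vldlr, the receptor for triglyceride-rich particles, had 3.23, 2.30 and 3.21 on ND and 3.94, 4.59 and 4.37 on HFD and rose by 1.39 (SE 0.30, adjusted p = 0.0392). In WT it rose as well, by 2.01 (adjusted p = 0.00134), while its difference in TG was -0.46 (adjusted p = 0.65). Lpin1 lost its call without 4 of the 6 arrays and the other genes of this paragraph without 5 or 6. The highest adjusted p was 0.152 for Lpin1, 0.187 for Angptl4, 0.21 for Plin5 and 0.206 for Vldlr without KO ND replicate 2, 0.141 for Acot1 without KO HFD replicate 1 and 0.101 for Plin3 without KO HFD replicate 2.

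As groups, the lipid lists held few calls. Of 15 PPAR-alpha target hydroxylases and thioesterases 3 fell (Cyp4a12b, Acot1 and Angptl4), against 0.343% of all genes. None of the 15 rose and 14 were below 0, with a median of -0.51 against 0.005 over all genes. The average level of these 15 genes was 6.33 to 6.54 in the ND arrays and 5.61 to 5.86 in the HFD arrays. Cyp4a12b, described above as androgen- and growth hormone-dependent, is also among the male-biased falls, so its fall counts in both lists. Of 25 genes of fatty acid oxidation none was called, 18 were below 0 and the median was -0.12. Of 18 lipid droplet proteins 1 rose and 1 fell, and of 13 genes of triglyceride synthesis 1, Lpin1, fell. None of 17 lipogenic genes was called at a median of 0.36. Srebf1, which drives them, had 6.84, 6.26 and 6.32 on ND and 7.55, 7.76 and 7.28 on HFD, with no overlap and an adjusted p of 0.117. All 19 measured genes of cholesterol synthesis had higher means on HFD, with a median of 0.64, and none was called. Insig1, the sterol-regulated anchor of SREBP processing, had 8.79, 8.54 and 8.95 on ND and 9.93, 9.98 and 9.16 on HFD (adjusted p = 0.178). KO HFD replicate 3 was the low HFD array here, and its average over the 19 genes, 6.05, lay within the ND range of 5.95 to 6.17, while KO HFD replicates 1 and 2 had 6.81 and 6.88.

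Classic genes of the fatty liver did not pass in KO, and their spread was wide. Cidec, a lipid droplet fusion protein, had 6.85, 5.87 and 5.30 on ND and 3.14, 6.22 and 4.04 on HFD, so KO HFD replicate 2 lay among the ND arrays (log2 difference -1.54, adjusted p = 0.344). Cidea, its relative, had 6.11, 3.80 and 2.59 on ND and 0.94, 5.08 and 3.06 on HFD, a full overlap (adjusted p = 0.694). The same array was the highest of the HFD group for the fatty acid synthase gene Fasn, at 10.50 against 9.53 and 8.58 with 9.24, 8.50 and 8.03 on ND (adjusted p = 0.522), and for the hormone gene Fgf21, at 4.15 against 2.83 and 2.59 with 1.88, 1.82 and 1.84 on ND (adjusted p = 0.197). Cd36, a fatty acid transporter, had a difference of -0.20 (adjusted p = 0.861), Scd1, a desaturase, of -0.03 (adjusted p = 0.989), Pparg of -0.27 (adjusted p = 0.862) and Cyp7a1, the rate-limiting enzyme of bile acid synthesis, of -0.54 (adjusted p = 0.686). In WT the diet raised Cidec by 2.90 (adjusted p = 0.0276), Cd36 by 1.15 (adjusted p = 0.0327), Fgf21 by 1.94 (adjusted p = 0.0351) and Cyp7a1 by 1.86 (adjusted p = 0.0211). The difference between the genotypes passed for Cidec (adjusted p = 0.0233) and Cyp7a1 (adjusted p = 0.0491), and did not for Cd36 (adjusted p = 0.105) or Fgf21 (adjusted p = 0.798). Group means show the starting point as well, since Cidec was 6.01 ± 0.78 (SD, n = 3) in KO on ND and 2.51 ± 0.41 (SD, n = 3) in WT on ND.

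Pck1, Fkbp5, Dusp1 and Pim3 fell and Gckr rose. Pck1, the gluconeogenic enzyme phosphoenolpyruvate carboxykinase, had 10.78, 11.14 and 11.27 on ND and 9.84, 10.03 and 10.09 on HFD. The groups were tight and separate, and Pck1 fell by 1.08 (2.11-fold, SE 0.17, adjusted p = 0.00910). Fkbp5, a chaperone induced by the glucocorticoid receptor, had 5.56, 6.23 and 6.48 on ND and 3.71, 4.24 and 3.98 on HFD, a fall of 2.11 (SE 0.36, adjusted p = 0.0125). Dusp1, a phosphatase of MAP kinases and another glucocorticoid target, fell by 1.17 (SE 0.25, adjusted p = 0.0358), and Pim3, a survival kinase, by 1.55 (SE 0.34, adjusted p = 0.0392). Gckr, the regulator that holds glucokinase in the nucleus, rose by 0.50 (SE 0.11, adjusted p = 0.0411), the smallest rise named here. Pck1 was the only called gene of 14 in gluconeogenesis and glycogen metabolism. Pck1 lost its call without 2 arrays (adjusted p up to 0.0538), Fkbp5 without 3 (up to 0.0657) and Dusp1 without all 6 in turn (up to 0.182), each time with the highest value without KO ND replicate 2. Pim3 lost it without 5 and Gckr without all 6, up to 0.149 and 0.145 without KO ND replicate 3.

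**Figure D2:**
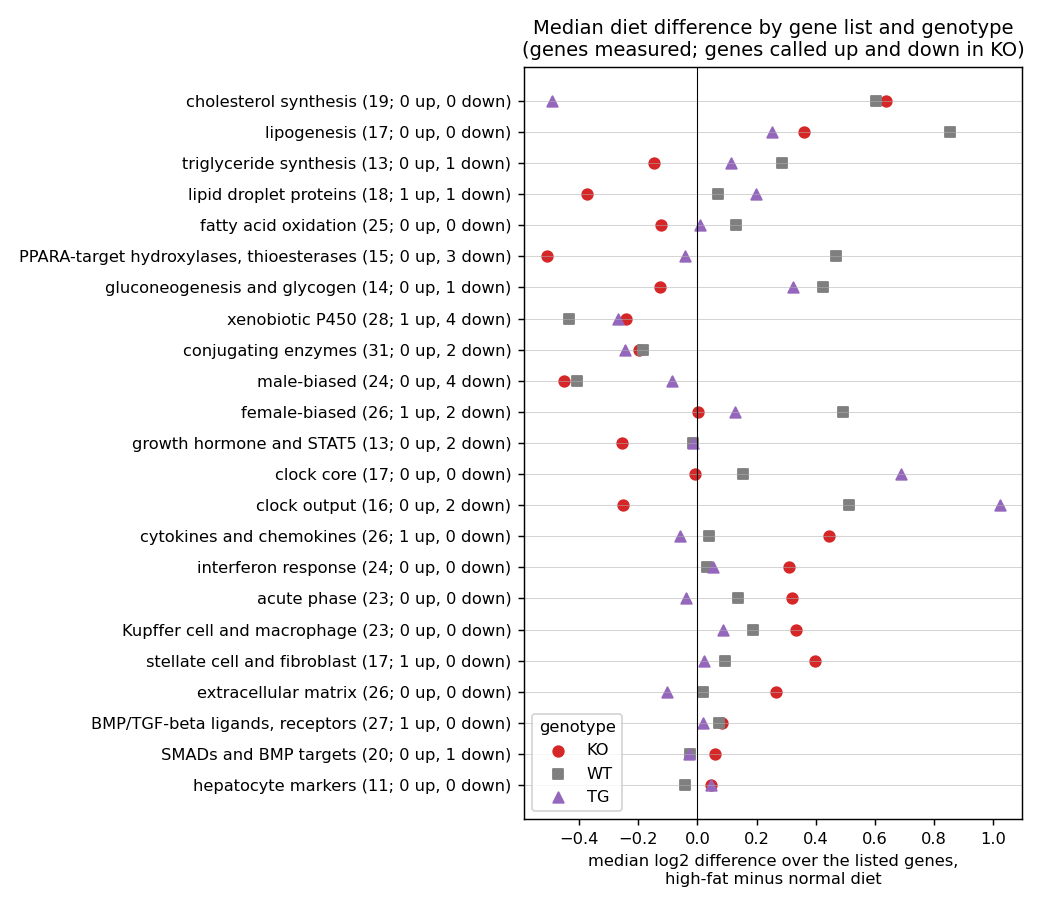
Median log2 difference between the diets, high-fat minus normal (horizontal axis), over the measured genes of 23 gene lists (vertical axis) in KO (circles), WT (squares) and TG (triangles); the numbers after each name are the genes measured and those called up and down in KO. PPAR-alpha targets lie at -0.51 in KO and 0.47 in WT, whereas cholesterol synthesis lies at 0.64 in KO and 0.60 in WT; the medians carry no test.

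Cldn1, Camk1d, Nfkbie, Agtr1a and Actg1 were among the rises. Cldn1, the tight junction protein claudin-1, had the smallest p of the comparison, with 6.67, 6.25 and 6.43 on ND and 7.99, 7.84 and 7.99 on HFD. The arrays of each diet lay close together, and the gene rose by 1.49 (2.80-fold, SE 0.15, adjusted p = 0.000397). Camk1d, a calcium/calmodulin-dependent kinase, had 3.60, 4.43 and 4.72 on ND and 5.92, 6.19 and 6.05 on HFD and rose by 1.80 (SE 0.25, adjusted p = 0.00326). Nfkbie, the NF-kB inhibitor I-kappa-B epsilon and itself an NF-kB target, had 1.54, 1.64 and 1.75 on ND and 2.81, 2.76 and 3.30 on HFD. From a dim level it rose by 1.32 (SE 0.18, adjusted p = 0.00326). Agtr1a, the angiotensin receptor, had 6.62, 6.53 and 6.60 on ND and 7.34, 7.50 and 7.45 on HFD and rose by 0.85 (SE 0.12, adjusted p = 0.00326). Actg1, cytoplasmic gamma-actin, rose by 1.41 (SE 0.23, adjusted p = 0.00910) at its brightest probe set, but by 0.73 with an adjusted p of 0.0821 for the mean over its probe sets. Cldn1, Camk1d, Nfkbie and Agtr1a kept their call without each of the 6 arrays.

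Icam1, the adhesion molecule that leukocytes bind on endothelium and hepatocytes, had 3.79, 2.65 and 2.99 on ND and 4.41, 4.41 and 4.49 on HFD. The HFD arrays were nearly equal and the ND arrays were spread below them. It rose by 1.29 (2.45-fold, SE 0.30, adjusted p = 0.0496) and was the only called gene of 26 cytokine, chemokine and adhesion genes, but it lost its call without 5 of the 6 arrays (up to 0.241 without KO ND replicate 2), and with arrays centred on their median its adjusted p was 0.0569. Its promoter is printed because it holds a match to an NF-kB site, beside the rise of Nfkbie, and it was picked after those values were seen. The stretch is chr9:21015690-21015989 of GRCm38.p6 (RefSeq), plus strand, 250 bases before to 50 after the gene start, with the site in capitals, starting at position -153.
Icam1: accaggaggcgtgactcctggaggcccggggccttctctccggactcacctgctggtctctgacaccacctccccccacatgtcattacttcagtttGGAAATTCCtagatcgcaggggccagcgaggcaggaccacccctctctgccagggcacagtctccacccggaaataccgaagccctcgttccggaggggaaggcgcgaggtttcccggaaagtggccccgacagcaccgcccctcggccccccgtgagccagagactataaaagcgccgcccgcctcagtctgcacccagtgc
The letters searched were GGAAATTCC on both strands. They occur in 0.317% of 32851 promoters of this length and in 0.43% of 16990 measured genes with a promoter in the table, against 2 of 72 rising genes (Icam1 and Ctsl) and 0 of 56 falling genes. The motif, like Icam1, was chosen after the values were seen, so these counts, which include Icam1, are a description and no test. Other motifs were searched as well. A match describes letters and is not evidence of binding.

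Macrophage, stellate cell and interferon genes were mostly a little higher, and few were called. Of 23 Kupffer cell and macrophage markers 20 were above 0 with a median of 0.33 and no call, and their average level was 4.79 to 5.27 on ND and 5.03 to 5.45 on HFD, which overlap. The 3 below 0 all lay lower on HFD with no overlap, as 7.83% of all genes did. Another 6 lay higher with no overlap, against 9.22% of all genes. The median was 0.19 in WT and 0.09 in TG. Of 17 stellate cell and fibroblast markers 16 were above 0 with a median of 0.40. The only one called was Reln, the secreted matrix protein reelin, which had 5.83, 5.79 and 5.88 on ND and 6.65, 6.55 and 6.41 on HFD (log2 difference 0.71, SE 0.10, adjusted p = 0.0048). Of 14 markers of recruited monocytes Plac8 rose, by 0.96 (SE 0.20, adjusted p = 0.0281). None of 24 interferon response genes was called, although 10 lay higher on HFD with no overlap, as 9.22% of all genes did, and the median was 0.31. The 26 cytokine, chemokine and adhesion genes had a median of 0.44 and an average level of 2.33 to 2.57 on ND and 2.74 to 2.95 on HFD. Saa2, an acute phase apolipoprotein, had 5.41, 4.39 and 7.68 on ND and 8.66, 9.95 and 10.55 on HFD, a difference of 3.89 with an SE of 1.15 and an adjusted p of 0.138. Neutrophil, T and NK cell, and B cell markers were dim with medians of 0.02, 0.07 and 0.09 and no call. What these cells contributed to the rise of Icam1 or Nfkbie was not tested. Tnf (log2 difference -0.04, adjusted p = 0.982) and the collagen gene Col1a1 (0.48, adjusted p = 0.765) did not pass.

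BMP signalling genes, the pathway in which Kcp acts, held 2 calls, 1 fall and 1 rise. Over all genes 0.343% fell and 0.46% rose. Smad9 encodes SMAD8, a receptor-activated SMAD of the BMP branch. It had 3.92, 3.87 and 4.16 on ND and 2.75, 1.87 and 1.78 on HFD, with KO HFD replicate 1 the highest of the HFD arrays, and it fell by 1.85 (3.60-fold, SE 0.42, adjusted p = 0.0461). It was the only called gene of 20 SMADs and BMP or TGF-beta targets, whose median was 0.06. Hjv, the BMP co-receptor hemojuvelin of the iron pathway, had 7.04, 6.88 and 6.82 on ND and 7.68, 7.52 and 7.49 on HFD and rose by 0.65 (SE 0.14, adjusted p = 0.0423). Of 27 ligands and receptors it alone was called, at a median of 0.08, and of 15 extracellular modulators, 11 of them dim, none was. The BMP target genes Id1 (log2 difference 0.12, adjusted p = 0.9) and Smad7 (-0.09, adjusted p = 0.933) did not pass, nor did the hepcidin gene Hamp, at 11.23 to 11.34 on ND and 11.26 to 11.51 on HFD (adjusted p = 0.961). Smad9 and Hjv both lost their call without each of the 6 arrays in turn, with adjusted p up to 0.154 without KO HFD replicate 2 and 0.174 without KO HFD replicate 1. The interaction for Smad9 did not pass against WT (adjusted p = 0.306) or TG (adjusted p = 0.529), and the same held for Hjv (adjusted p = 0.193 and 0.101).

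A microRNA probe set was among the large rises. Mir483 lies at chr7:142654924-142654996 of GRCm38.p6, minus strand, inside the span of the imprinted growth factor gene Igf2 (chr7:142650768-142666816). As a small RNA it was outside the naming rule and was picked after its value was seen, because it has a sequence that can be shown beside its host gene. The mature forms are given from RefSeq with the seed, bases 2 to 8, in capitals.
mmu-miR-483-5p: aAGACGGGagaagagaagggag
mmu-miR-483-3p: uCACUCCUccccucccgucuu
Its level was 2.16, 1.51 and 0.94 on ND and 3.22, 4.09 and 4.04 on HFD. The diets did not overlap and it rose by 2.25 (4.75-fold, SE 0.43, adjusted p = 0.0209), losing the call without 4 of the 6 arrays, up to 0.0908 without KO HFD replicate 2. The difference in WT was -0.59 and the interaction passed (adjusted p = 0.035). Igf2 was dim, with 1.19, 1.14 and 1.27 on ND and 2.02, 1.40 and 1.46 on HFD (log2 difference 0.43, adjusted p = 0.483). An array labelled from total RNA does not tell a mature microRNA from its precursor or its host transcript.

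Clock genes were examined because the labels give no hour of harvest. The liver clock is a loop in which CLOCK and ARNTL bind E-boxes (CACGTG) and drive their own repressors, and its output genes peak at fixed hours. A score per array, the mean of 9 evening genes minus the mean of 5 morning genes, was 1.67 ± 0.19 (SD, n = 3) in KO on ND and 2.18 ± 0.19 (SD, n = 3) in KO on HFD. The arrays were at 1.46, 1.71 and 1.84 on ND and 2.32, 1.97 and 2.26 on HFD, without overlap. In WT the score was -0.60 ± 0.93 (SD, n = 3) on ND and 1.97 ± 0.14 (SD, n = 3) on HFD, and in TG -1.19 ± 0.42 (SD, n = 3) and 1.84 ± 0.31 (SD, n = 4). None of 17 core clock genes was called between the KO diets. Of these, 8 had higher and 9 lower means on HFD, so the median of -0.01 does not show a lack of change. The diets did not overlap for 5 higher and 6 lower genes, against 9.22% and 7.83% of all genes. At an unadjusted p under 0.05 (limma) there were 7 of the 17, and 2516 of all 22180 genes. Nr1d1, the repressor REV-ERB-alpha, had 4.98, 4.51 and 4.57 on ND and 6.16, 5.69 and 7.05 on HFD (adjusted p = 0.072), and Arntl had 4.00, 3.71 and 3.26 against 2.13, 2.91 and 2.58 (adjusted p = 0.0887). Of 16 clock output genes Lpin1 and Nampt, the NAD salvage enzyme, fell, against 0.343% of all genes. With the score as a covariate 71 genes were called in KO, 66 of them among the 178, and 27 of the 49 named calls did not pass. Among these, the log2 differences with the score were -2.25 for Lpin1, -2.72 for Socs2, -2.19 for Acot1, -2.08 for Smad9, 1.27 for Icam1, 0.61 for Hjv and -0.78 for Nampt, close to their values without the score.

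**Figure D3:**
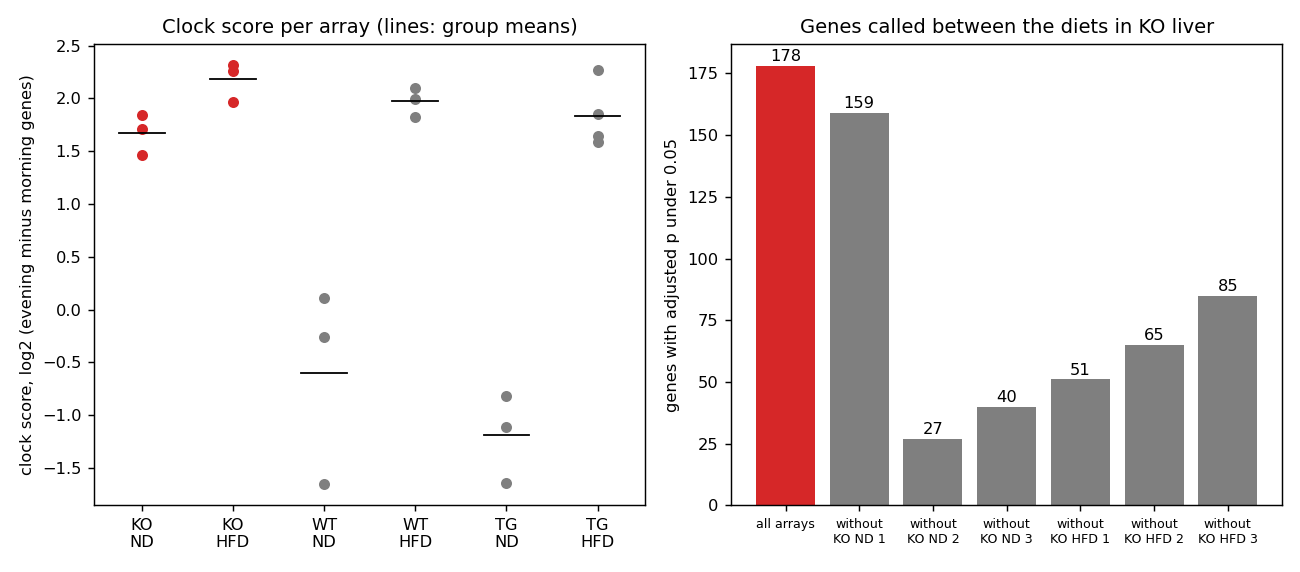
Left, clock score on the log2 scale (evening minus morning genes, vertical axis) for each array of the 6 groups, with lines at the group means; right, number of genes called between the diets in KO liver with all arrays and without each KO array in turn. The ND arrays of WT and TG lie below the other groups, and the count runs from 27 to 178.

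The diet difference in KO was tested against that in WT and TG for each gene. It differed from WT for 183 genes (0.825%, 99 or 0.446% higher and 84 or 0.379% lower in KO) and from TG for 238 (1.07%, 134 or 0.604% higher and 104 or 0.469% lower), with 71 genes in both. Of the 178 genes called in KO, 55 differed from WT, 73 from TG, 34 from both and 84 from neither. With the clock score as a covariate only 14 and 1 of the interactions passed, so these counts depend on whether the score is in the model. Without KO ND replicate 2 there were 88 and 112. Many members of the KO list are therefore not shown to respond otherwise than in WT or TG.

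Cldn1 had the opposite change in the other genotypes. It fell by 0.82 in WT (adjusted p = 0.00914) and by 0.71 in TG (adjusted p = 0.023), with interactions of 2.31 and 2.20 (adjusted p = 2.45e-05 and 6.26e-05). Its group mean was 6.45 ± 0.21 (SD, n = 3) in KO on ND and between 7.75 and 8.71 in the other 5 groups, so KO on ND was the low group. Nampt went the other way, with 7.53, 7.29 and 7.42 on ND and 6.61, 6.67 and 6.34 on HFD in KO, a fall of 0.87 (SE 0.19, adjusted p = 0.0366) that did not pass without any of the 6 arrays, up to 0.123 without KO HFD replicate 3. It rose by 1.40 in WT and 1.45 in TG (adjusted p = 0.000431 and 0.000192). The mean of Nampt was 7.41 ± 0.12 (SD, n = 3) in KO on ND, 5.28 ± 0.16 (SD, n = 3) in WT on ND and 5.59 ± 0.20 (SD, n = 3) in TG on ND, while on HFD the 3 genotypes lay between 6.54 and 7.04.

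Lpin1, Fkbp5 and Plk3, a stress-induced polo-like kinase, fell in KO, while their differences in WT (1.28, 0.40 and 1.04) and TG (1.93, 0.92 and 0.98) were above 0 and none was called. Plk3 had 6.74, 7.47 and 7.35 on ND and 5.38, 5.43 and 5.63 on HFD and fell by 1.71 (SE 0.37, adjusted p = 0.036), a call lost without 5 arrays and up to 0.172 without KO ND replicate 2. The interactions passed against WT for Lpin1 (adjusted p = 0.0157), Fkbp5 (adjusted p = 0.0238) and Plk3 (adjusted p = 0.0157), and against TG as well (adjusted p = 0.00274, 0.00417 and 0.0119). Lpin1 had a mean of 10.14 in KO on ND against 5.78 to 8.50 in the other groups, Fkbp5 of 6.09 against 3.34 to 4.49 and Plk3 of 7.19 against 4.67 to 5.78. Camk1d had a mean of 4.25 in KO on ND against 6.05 to 6.92. The group that stood apart at these genes was thus KO on ND, and KO on HFD lay within or near the range of the others. For Nfkbie and Cyp2b13 the highest group was KO on HFD, with means of 2.96 and 4.32 against at most 2.51 and 2.71 elsewhere. The 2.71 of Cyp2b13 is WT on ND, with an SD of 1.79. For Nfkbie KO on ND was also the lowest, at 1.64.

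**Figure D4:**
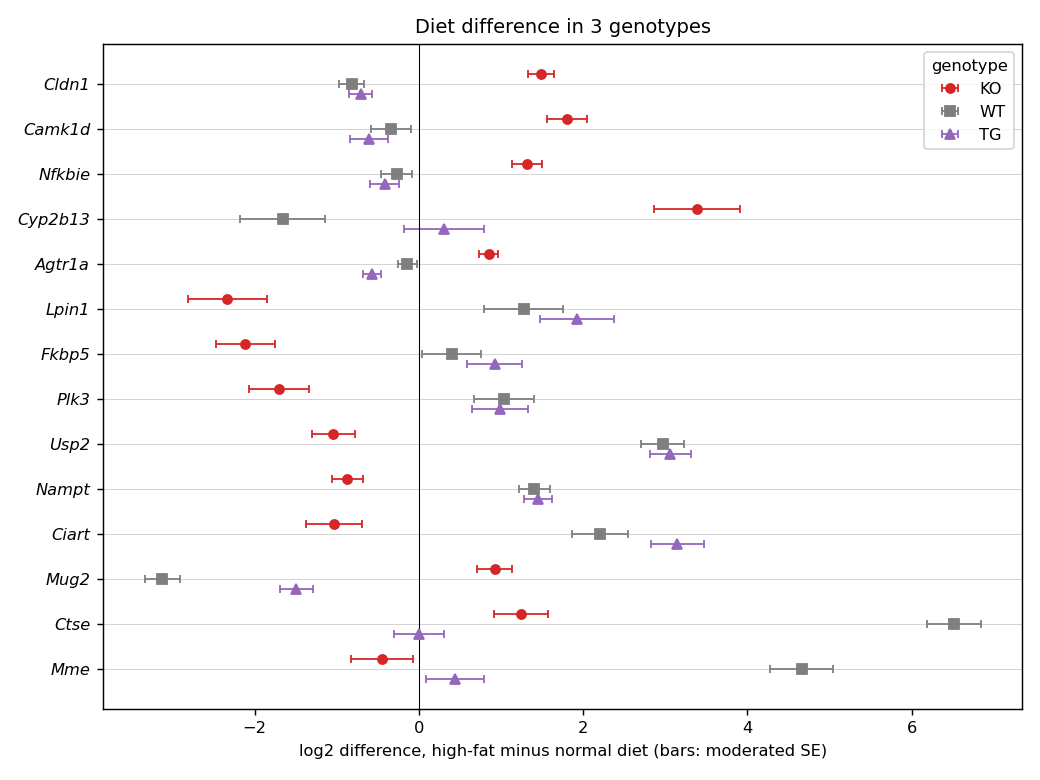
Log2 difference between the diets, high-fat minus normal (horizontal axis), for 14 genes with a called interaction, in KO (circles), WT (squares) and TG (triangles), with bars of 1 moderated standard error. Cldn1 lies at 1.49 in KO and below 0 in both other genotypes, and Usp2 and Ciart lie below 0 in KO and above 2 in the others.

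The clock output gene Usp2, a deubiquitinase, and the core clock gene Ciart, a repressor of CLOCK and ARNTL, were not called in KO. Both differed between the genotypes. Usp2 had 7.01, 7.35 and 7.40 on ND and 6.41, 6.29 and 5.94 on HFD (log2 difference -1.04, adjusted p = 0.0785) and rose by 2.97 in WT and 3.06 in TG. Ciart had 4.97, 5.61 and 5.74 on ND and 4.04, 4.82 and 4.37 on HFD (log2 difference -1.03, adjusted p = 0.199) and rose by 2.21 in WT and 3.15 in TG, with interactions at an adjusted p of 0.00335 and 0.000219. The mean of Usp2 was 3.19 in WT on ND and 3.63 in TG on ND, and between 6.16 and 7.25 in the other groups. That of Ciart was 2.04 in WT on ND and 2.01 in TG on ND, against 4.25 to 5.44. The groups apart at both genes were thus WT and TG on ND. The promoter of Ciart is shown because its difference between the genotypes is among the largest and its letters carry the E-box of the clock more than once. It is chr3:95882179-95882478 of GRCm38.p6 (RefSeq), minus strand, with the E-boxes in capitals, starting at positions -116, -58 and -44.
Ciart: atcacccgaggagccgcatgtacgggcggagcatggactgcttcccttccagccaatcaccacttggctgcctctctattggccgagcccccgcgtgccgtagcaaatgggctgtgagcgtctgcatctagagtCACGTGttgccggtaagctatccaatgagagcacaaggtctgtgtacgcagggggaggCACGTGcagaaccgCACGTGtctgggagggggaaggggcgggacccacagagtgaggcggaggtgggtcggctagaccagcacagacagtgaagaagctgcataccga
The letters CACGTG, which read the same on both strands, occur in 7.15% of all promoters of this length and in 9.19% of measured genes. They were found in 11 of 72 genes that rose and 6 of 56 that fell, Dusp1 and Fkbp5 among the latter.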

How the data were processed

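Whole-liver RNA from 19 mice was measured on 1 Affymetrix array each. The authors deposited 1 table of log2 values, with a row for each probe set, normalized before deposit. The submitters' processing notes list affy, RMA and limma without saying what each did. The base of the logarithm was inferred from those names and the range of the values, and other steps are not given in the sources used here. Array medians lay between 0.983 and 1.075, and 1.81% of values were below 0. Precision is limited by the number of arrays, which have no depth.

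Of 41345 probe sets, 23521 had 1 symbol in the platform annotation, 1814 several and 16010 none here. Of the 23521, 23328 matched RefSeq GRCm38.p6 by Entrez identifier and no symbol changed. The probe set with the highest mean stood for each of 1082 genes with several, giving 22180 genes. Dim genes were kept, and 56.5% had a mean below 2, where differences are compressed.

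A linear model of 6 group means was fitted to all 19 arrays with limma 3.58.1 (lmFit, eBayes) in R 4.3.3 (residual degrees of freedom 13, prior 4.76). Adjusted p-values are two-sided and Benjamini-Hochberg over all genes. Interactions are the diet difference in KO minus that in WT or TG. The fit, tested on simulated data, made 4 false calls among 22180 genes. The members and the 57 gene lists were chosen with earlier results of these data known, so lists are described by counts and medians.

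Genes were named by rule: the 15 largest rises and falls among called genes with no overlap, up to 4 called genes of each list, the 8 smallest p-values of each interaction, 14 fixed genes, and members of a list described as a whole. Predicted genes, small RNAs and pseudogenes, 19 of the 178, were counted and not named, apart from Mir483. Alternatives were fits on the compared arrays alone, quantile normalization, median centring, means over probe sets, a filter, trended and robust variance, array weights, the clock score as a covariate, and arrays left out.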

Additional observations from a re-analysis of the deposited data

Results flagged for a closer look

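The genes below are those named by rank, as called members of a list, by interaction or as fixed genes, where the diet difference in KO differed from that in another genotype by the interaction test (limma, adjusted p under 0.05 over all genes). All values are log2 units, the KO difference minus the other one.

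Against WT, the KO difference was higher for Cyp2b13 by 5.04, Mug2 (an alpha-macroglobulin of the murinoglobulin family) by 4.05, Rdh16f2 by 2.76, Rian (a long non-coding RNA of an imprinted cluster) by 2.44, Asic5 (an ion channel) by 2.42, Cldn1 by 2.31, Camk1d by 2.14, Mustn1 by 1.98, Rtn4rl1 by 1.67, Nfkbie by 1.59 and Agtr1a by 0.99. It was lower for Ctse (cathepsin E) at -5.27, Mme (neprilysin) at -5.11, Cidec at -4.44, Usp2 at -4.01, Lpin1 at -3.61, Ciart at -3.24, Plk3 at -2.74, Fkbp5 at -2.51, Cyp7a1 at -2.39, Nampt at -2.28, Coq10b at -2.05, Dusp1 at -1.69, Fmo2 at -1.68 and Pck1 at -1.12. Ctse and Mme were not called in KO, with adjusted p of 0.0957 and 0.753, and differed through large rises in WT of 6.51 and 4.66. Their means were 1.83 and 2.73 in WT on ND and 6.23 and 7.69 in KO on ND. WT on ND was likewise the group apart for Rian and Asic5, with means of 2.82 and 7.70. In the other groups Rian lay at 0.48 to 0.95 and Asic5 at 3.85 to 4.75. Asic5 fell in WT by 3.32 (adjusted p = 1.26e-08). In KO it fell by 0.89 (adjusted p = 0.0332), a call lost without each of the 6 arrays in turn.

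Against TG, the KO difference was higher for Cyp2b13 by 3.08, Slc22a27 by 2.86, Arrdc3 by 2.43, Mug2 by 2.41, Camk1d by 2.41, Rtn4rl1 by 2.24, Cldn1 by 2.20, Vldlr by 1.84, Nfkbie by 1.74, Mustn1 by 1.70, Agtr1a by 1.42, Plin3 by 0.93 and Reln by 0.61. It was lower for Lpin1 at -4.26, Ciart at -4.18, Usp2 at -4.10, Fkbp5 at -3.04, Tmc7 at -2.72, Plk3 at -2.69, Coq10b at -2.52, Nampt at -2.32, Dusp1 at -2.07, Pim3 at -2.04, Fmo2 at -1.89, Cyp21a1 at -1.88, Pck1 at -1.43 and Asic5 at -1.22. Mug2 had 8.57, 8.35 and 9.12 on ND and 9.35, 9.70 and 9.76 on HFD in KO (log2 difference 0.92, adjusted p = 0.0537), while it fell by 3.12 in WT and by 1.49 in TG. With the clock score as a covariate, 14 interactions against WT and 1 against TG were called over all genes, and the part of harvest time in these differences was not tested.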

How the results depend on the processing

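None of the 49 named calls changed sign under the alternatives run, arrays left out included, while 6 of the 21 named genes that were not called did. With only the arrays of the groups compared, 62 genes were called in KO (44 shared with the 178), 139 of 293 in WT and 55 of 201 in TG. Adding the clock score as a covariate gave 71 genes in KO, 6 in WT, 0 in TG (limma, with 1002 at an unadjusted p under 0.05), 14 for the interaction with WT and 1 for that with TG. A filter on a mean log2 of at least 2, which leaves fewer genes to adjust over, gave 292 in KO, 310 in TG, 294 and 371 for the interactions. Without WT HFD replicate 1 and TG HFD replicate 2, which correlated least with the other arrays, the counts were 202 in KO and 186 in WT. Leaving out 1 array at a time gave 27 to 159 genes in KO, 166 to 295 in WT, 73 to 182 in TG, 88 to 189 for the interaction with WT and 112 to 296 for that with TG. Quantile normalization gave 169 in KO, centring 166, means over probe sets 161, trended and robust variance 232 and array weights 264. Of the 49 named calls 24 held on the compared arrays alone, 22 with the clock score, 12 to 31 without 1 KO array, 46 of the 46 still tested under the filter, and 45 to 49 under the other settings. Medians of 57 lists moved beyond the spread in 52 of 850 values, and 18 lists changed sign somewhere. The median of all genes was at most 0.013 after rescaling. No paired analysis was possible because the labels give each animal its own number and groups share none. The cause of these differences was not tested.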

Other observations

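Genes outside the naming rule, picked here after their values were seen, add to the account of KO liver. Immune receptors and signalling genes among the 102 rises were Sirpa (log2 difference 1.23), the phagocyte receptor for CD47, Ptafr (1.05), the receptor for platelet-activating factor, Itgal (0.82), a leukocyte integrin subunit and partner of ICAM1, Tnfrsf1a (0.80), the TNF receptor, Il10rb (0.77), Tlr3 (0.74), a sensor of double-stranded RNA, Ikbke (0.87), a kinase of the interferon and NF-kB pathways, and Mlkl (0.97), the executor of necroptosis. Cmpk2 (1.01), Parp14 (0.81) and Rnf213 (0.54), known as interferon-induced genes, rose too, while none of the 24 listed interferon response genes was called. Among the falls were Il6ra (-1.31), the interleukin-6 receptor, St3gal5 (-1.43), the synthase of ganglioside GM3, Fgf1 (-0.79), a fibroblast growth factor, and Cipc (-0.66), an inhibitor of CLOCK. Tnfrsf1a, Il10rb, Tlr3, Rnf213, Fgf1 and Cipc lost their call without 5 of the 6 KO arrays. Their adjusted p (limma) went up to 0.196, 0.16, 0.13, 0.182, 0.114 and 0.2. Il6ra and St3gal5 lost it without 4 arrays and Parp14 without 2, while Itgal kept its call without each array.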
